A study of Mus musculus with 6 samples.

Results

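The collagen chains of the mouse dorsal root ganglion were described from bulk RNA sequencing of NMDA receptor knockout and wild-type animals. A collagen chain was taken as any protein-coding gene whose GRCm38 symbol has the form Col, a number, a and a number. The rule found 44 chains among the 36793 gene identifiers of the deposited table, on 15 chromosomes, and used no measured value. They were divided into 11 fibrillar chains, 9 chains of basement membranes, 9 fibril-associated chains, 6 beaded-filament (type VI) chains, 3 short-chain collagens, 4 transmembrane collagens and 2 others.

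The knockout (KO) group held libraries from mice 4, 5 and 6, with the genotype given as NMDA-R Knockout, and the wild-type (WT) group held libraries from mice 1, 2 and 3. The series title places the loss of GluN1, the obligatory NMDA receptor subunit encoded by Grin1, in Schwann cells. The sources used here do not name a Cre driver, strain, age or sex for the mice. RNA came from whole ganglia of the lumbar levels L3 and L4, which hold sensory neurons, satellite glia, Schwann cells, fibroblasts and vessels, although the labels give the cell type as Schwann cells.

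Collagens are trimers of alpha chains wound into a triple helix. Fibrillar collagens (types I, II, III, V, XI, XXIV and XXVII) assemble into tensile fibrils, fibril-associated collagens sit on the surface of these fibrils, and type IV collagen forms the sheet-like network of basement membranes. In peripheral nerve, fibroblasts lay down fibrils between axons, and each Schwann cell and axon unit is wrapped in a basement membrane that the Schwann cell makes. Type IV collagen there is also a ligand of the Schwann cell receptor Adgrg6.

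The 6 libraries held 28526704 to 36249163 expected counts. Libraries KO 5 and KO 6 agreed within sampling noise over 10258 genes with a mean of at least 20 counts, with a chi-square per gene of 1.15 and 0 differing genes, against 13.2 to 104 and 3382 to 7317 genes in the other pairs. They were therefore counted as 1 sample, which left n = 2 KO samples and n = 3 WT samples, and a KO value that is high or low in both of them is 1 observation. In the same check KO 4 had a chi-square per gene of 41.4 and 40.3 against KO 5 and KO 6, but 17.2 against WT 3. KO 5 and KO 6 had 28.9 and 28 against WT 2. On this measure each KO sample was thus nearer to a WT library than to the other KO sample. Grin1 stood at 81.5, 116 and 116 CPM (counts per 1000000, scaled by TMM) in KO libraries 4, 5 and 6, against 68.4, 114 and 74.3 CPM in WT libraries 1, 2 and 3. Its log2 fold change was 0.21 (SE 0.26, edgeR adjusted p = 0.812), so its level in whole ganglia did not mark the genotype, and KO below means the libraries labelled knockout. Neuronal Tubb3, at 3349 to 3601 TPM (transcripts per 1000000, which allows for gene length) in KO libraries and 2689 to 3239 TPM in WT libraries, showed that the libraries were not of Schwann cells alone. Library KO 4 stood apart in blood and muscle genes, with 5.97% of its TPM in 6 erythroid genes, against 1.64 and 1.65% in KO 5 and KO 6 and 1.27 to 2.45% in the WT libraries.

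The stretches just upstream of 3 fibrillar genes are printed, since Col5a3 had the smallest p among the chains, Col5a1 is its type V partner and Col3a1 is among the most abundant chains. Promoters from RefSeq (GRCm38.p6) were matched by symbol to 35 of the 44 chains, as 38 promoters. Each line gives the 250 bases that end just before the annotated transcription start, 5′ to 3′ on the gene's strand, with 3 motifs in capitals wherever they occur on either strand, namely the CCAAT box, the GC box written GGGCGG, and the TATA box written TATAAA. Col5a3 lies at chr9:20815068-20815317 on the minus strand, Col5a1 at chr2:27886175-27886424 on the plus strand and Col3a1 at chr1:45311288-45311537 on the plus strand.
Col5a3: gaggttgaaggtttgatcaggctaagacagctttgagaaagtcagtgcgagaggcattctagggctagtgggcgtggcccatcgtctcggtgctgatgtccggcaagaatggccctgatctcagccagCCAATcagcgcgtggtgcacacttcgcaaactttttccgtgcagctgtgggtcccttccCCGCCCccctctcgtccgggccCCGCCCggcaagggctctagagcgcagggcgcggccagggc
Col5a1: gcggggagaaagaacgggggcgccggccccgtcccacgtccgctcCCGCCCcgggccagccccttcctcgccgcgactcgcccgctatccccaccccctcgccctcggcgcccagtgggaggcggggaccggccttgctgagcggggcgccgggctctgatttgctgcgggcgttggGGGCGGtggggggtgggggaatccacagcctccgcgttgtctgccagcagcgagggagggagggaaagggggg
Col3a1: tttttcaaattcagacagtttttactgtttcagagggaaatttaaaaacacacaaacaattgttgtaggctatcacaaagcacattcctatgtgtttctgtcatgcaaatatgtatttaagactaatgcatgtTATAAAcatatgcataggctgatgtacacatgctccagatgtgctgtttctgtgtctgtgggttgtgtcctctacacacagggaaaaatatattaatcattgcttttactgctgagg
The type V promoters were GC-rich, at 62.8% in Col5a3 and 76.4% in Col5a1, and that of Col3a1 was AT-rich, at 35.2% GC. Col5a3 held 1 CCAAT box, whose first base lies 122 bases before the start, and 2 GC boxes, and Col5a1 held 2 GC boxes alone. Col3a1 held neither and had 1 TATA box, 117 bases before the start. Among the 38 collagen promoters the CCAAT box was in 13 (34.2%), the GC box in 22 (57.9%) and the TATA box in 5 (13.2%). Of all 32851 promoters of the same length, 33.8% held the CCAAT box, 32.7% the GC box and 12.4% the TATA box. These are matches of letters and do not show that a factor binds there.

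Levels are compared between chains as TPM, which is per length. Collagens together made up 721.6, 811.3 and 802.6 TPM in KO libraries 4, 5 and 6, against 524.0, 544.5 and 594.2 TPM in WT libraries 1, 2 and 3. All 3 KO libraries were above the WT range, and in bulk tissue more collagen RNA per cell cannot be told apart from more of the cells that make it. In every library 16 of the 44 chains exceeded 10 TPM, 9 chains stayed under 1 TPM in every library, and the rest lay between or crossed these levels.

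The order of the leading chains was not the same in the groups. In KO samples Col1a2, a chain of type I collagen, averaged 98.7 ± 14.1 TPM, followed by Col5a3 at 83.1 ± 1.39, Col3a1 at 76.5 ± 9.66 and Col28a1 at 64.7 ± 0.898 TPM (SD, n = 2). In WT samples Col1a2 averaged 73.0 ± 5.82 TPM, followed by Col28a1 at 55.1 ± 2.78, Col3a1 at 49.5 ± 6.31 and Col5a3 at 47.8 ± 1.46 TPM (SD, n = 3). Col3a1 and its neighbours in the order lay within 1 SD of each other in WT samples, so only the lead of Col1a2 and the gap between Col28a1 and Col5a3 exceeded the spread there. In KO samples Col5a3 and Col3a1 differed by less than the SD of Col3a1. Col28a1, known in mice from the surroundings of Schwann cells in peripheral nerve, was among the 4 most abundant chains in either group.

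**Figure D1:**
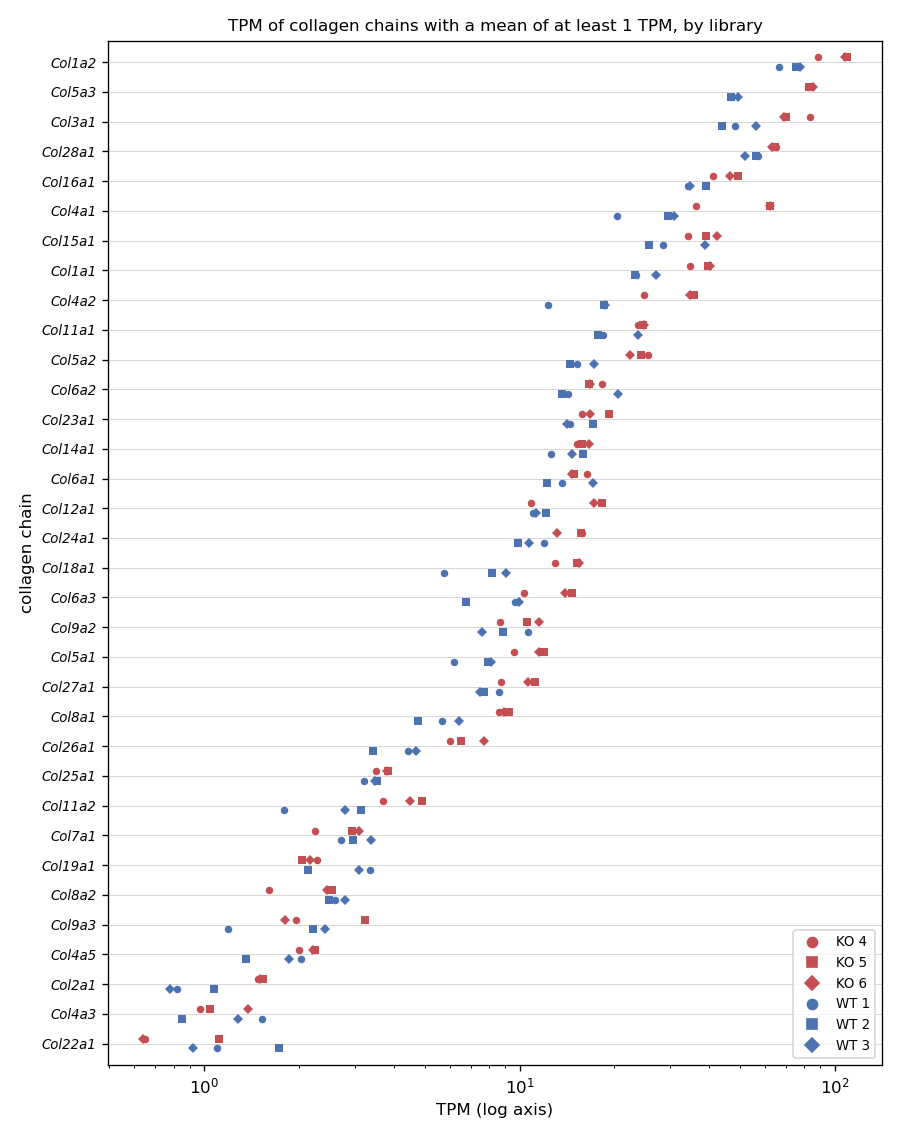
TPM (x axis, log scale) of each collagen chain with a mean of at least 1 TPM (y axis, most abundant at the top), with 1 point per library, KO in red and WT in blue. For Col5a3 the KO points lie between 82.12 and 85.15 TPM and the WT points between 46.86 and 49.45 TPM, while for Col14a1, Col9a2 and Col7a1 they interleave.

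The comparison of KO with WT ganglia asked whether the chains differ after loss of the receptor in Schwann cells. Most chains had higher values in KO libraries, among them all fibrillar chains, type IV alpha 1 and alpha 2 and type XVIII, but no single chain passed the test across all genes. Of the 42 chains tested, 35 had a positive and 7 a negative log2 fold change, with a median of 0.43, where 50.2% of the 16810 genes tested were positive and their median was 0.00. The edgeR quasi-likelihood test called 0 chains at a false discovery rate (FDR) of 0.05, where 0.0952% of all genes were called, and the smallest adjusted p was 0.0695, for Col5a3. At an unadjusted edgeR p under 0.05, 17 chains were higher, against 5.16% of all genes, and 1 was lower, against 4% of all genes. In 25 chains every KO library lay above every WT library in CPM, as did 10.2% of all genes. In 3 chains every KO library lay below in CPM, as did 14% of all genes. In TPM the groups overlapped for Col4a5, Col11a1, Col15a1, Col23a1 and Col25a1 of the 25, and for Col8a2 and Col22a1 of the 3. The chains share samples and in part cell types, so these counts are not independent observations.

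Some other ways of testing the same counts gave more calls, but most alternatives, the fits on TPM among them, also called 0 chains. DESeq2 on the same samples called 9 chains, all higher in KO (Col1a1, Col3a1, Col5a1, Col5a2, Col5a3, Col4a2, Col18a1, Col6a3 and Col8a1), where it called 0.782% of all genes as higher. With the 6 libraries entered separately, edgeR called Col1a1, Col5a2 and Col5a3, where 0.46% of all genes were called as higher, but that count treats KO 5 and KO 6 as separate mice. limma-voom with sample weights called Col5a3 alone, as did edgeR without a filter on low counts and edgeR at an FDR of 0.10, where 0.107%, 0.176% and 0.101% of all genes were called as higher. Collagen genes are GC-rich, with a median of 54.8% GC against 50.7% over all genes tested, and after a correction for GC content the median of the 42 chains was 0.37, with 33 positive and 0 called.

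**Figure D2:**
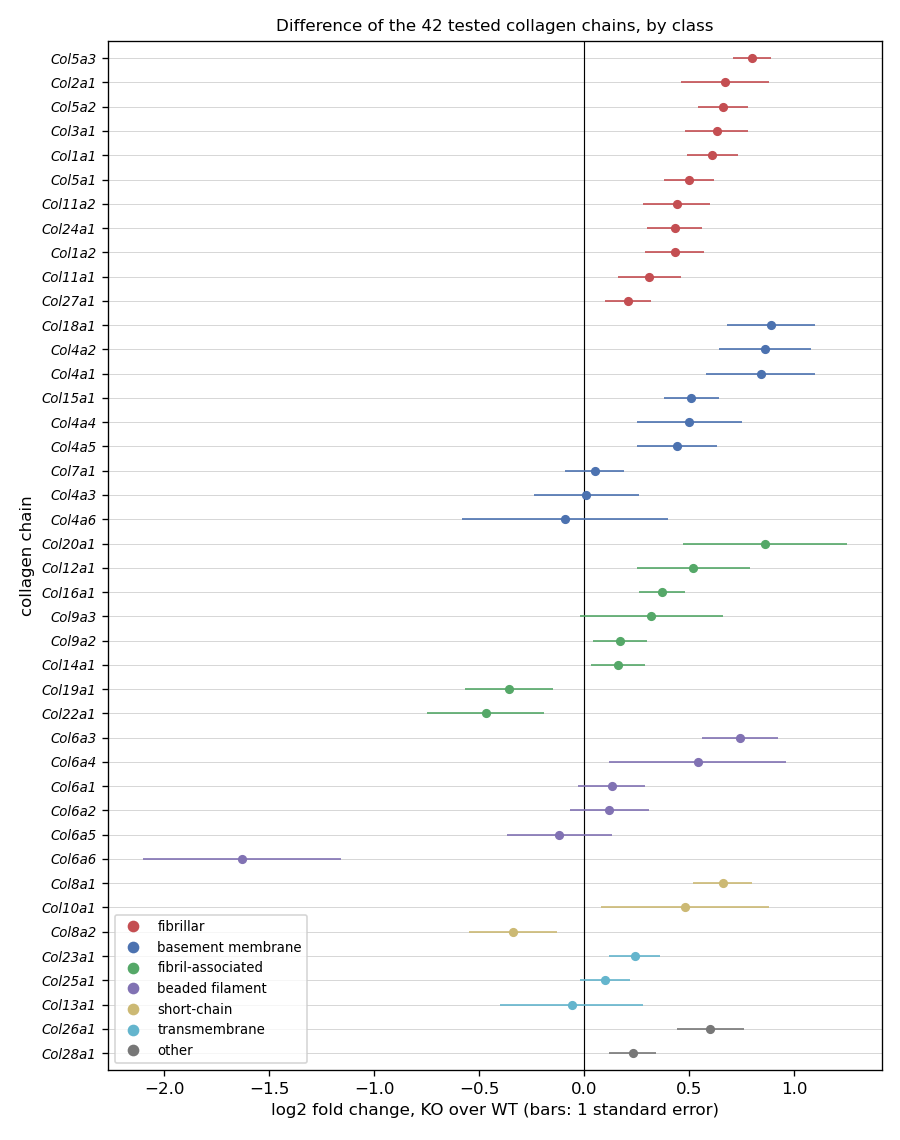
Log2 fold change of KO over WT (x axis, from edgeR, bars 1 SE) for the 42 tested collagen chains (y axis), coloured by class. All 11 fibrillar chains lie right of 0, between 0.21 and 0.80, and Col6a6 lies farthest left at -1.63.

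All 11 fibrillar chains had positive log2 fold changes, from 0.21 to 0.80 with a median of 0.50. In each of the 11 the KO libraries lay above the WT libraries in CPM, as did 10.2% of all genes. In TPM Col11a1 overlapped, at 23.7 in KO 4 and 23.73 in WT 3. None passed edgeR's test at an FDR of 0.05, and 9 were higher at an unadjusted p under 0.05, against 5.16% of all genes. Their summed level was 377.3, 396.2 and 391.2 TPM in KO libraries 4, 5 and 6, against 248.0, 251.4 and 281.0 TPM in WT libraries 1, 2 and 3. The class median remained positive after the GC correction, at 0.47.

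Type V collagen is a minor fibrillar collagen that regulates fibril diameter, and its alpha 3 chain Col5a3 has a rat counterpart described from Schwann cells. Col5a3 (chr9:20770050-20815067, minus strand) stood at 233, 225 and 229 CPM in KO libraries 4, 5 and 6, against 129, 132 and 135 CPM in WT libraries 1, 2 and 3. With counts of KO 5 and KO 6 summed and the 5 samples scaled anew by TMM, which shifts CPM slightly, the groups were far apart for their spread, at 232 ± 3.91 CPM in KO samples (SD, n = 2) and 133 ± 3.20 CPM in WT samples (SD, n = 3). Its log2 fold change was 0.80 (SE 0.09, 1.74-fold, edgeR adjusted p = 0.0695), and over the 17 alternatives the log2 fold change was 0.66 to 0.82 and the adjusted p 1.6e-10 to 0.405. The smallest p was that of DESeq2 and the largest that of edgeR without KO 4, where the log2 fold change was 0.79 but the KO group was 1 sample, assumed to vary like the WT samples. Its partner chains lay in the same direction. Col5a2 (chr1:45374321-45503282, minus strand) had 73.5, 69.2 and 63.1 CPM in KO libraries, against 42.8, 41.5 and 48.2 CPM in WT libraries, with a log2 fold change of 0.66 (SE 0.12, edgeR adjusted p = 0.221). Col5a1 had 33.5, 37 and 38.4 CPM in KO libraries, against 23.3, 27.1 and 25.3 CPM in WT libraries, with a log2 fold change of 0.50 (SE 0.12, edgeR adjusted p = 0.316). On the TPM scale Col5a3 exceeded Col5a1 by 6.92 to 8.57 times in KO libraries and by 5.89 to 7.57 times in WT libraries, ranges that overlap, while the ratio of their counts was 5.97 to 6.95 in KO libraries and 4.88 to 5.54 in WT libraries.

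Type I collagen, the main fibril protein of connective tissue, is built from Col1a1 and Col1a2. Col1a1 (chr11:94936224-94953042, plus strand) had 95.4, 105 and 106 CPM in KO libraries 4, 5 and 6, against 60.7, 64.1 and 72.4 CPM in WT libraries 1, 2 and 3. The lowest KO library was above the highest WT library, and the log2 fold change was 0.61 (SE 0.12, edgeR adjusted p = 0.249). Col1a2 had 204, 252 and 248 CPM in KO libraries, against 151, 179 and 177 CPM in WT libraries, and a smaller log2 fold change of 0.43 (SE 0.14, edgeR adjusted p = 0.453). Col3a1 (chr1:45311538-45349706, plus strand), the single chain of type III collagen, which forms fibrils together with type I, had 215, 174 and 172 CPM in KO libraries, against 122, 113 and 141 CPM in WT libraries. Here KO 4 was the highest library, unlike for type I, and the log2 fold change was 0.63 (SE 0.15, edgeR adjusted p = 0.299). Col3a1 and Col5a2 are neighbours on chromosome 1, on opposite strands, with starts 191744 bases apart.

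The other fibrillar chains were less abundant than Col1a1, Col1a2, Col3a1 and Col5a3, but not all were below Col5a1 and Col5a2. Averaged over all libraries, Col11a1 was at 22.2 and Col24a1 at 12.9 TPM, against 19.9 TPM for Col5a2 and 9.22 TPM for Col5a1. Col11a1, a chain of type XI collagen of thin fibrils, had 66.3, 61.4 and 62.0 CPM in KO libraries, against 47.9, 45.6 and 61.0 CPM in WT libraries, so that WT 3 nearly met the KO range (log2 fold change 0.31, SE 0.15). Col11a2 of type XI and Col2a1, the main collagen of cartilage, were at 3.68 to 4.90 and 1.48 to 1.54 TPM in KO libraries and at 1.79 to 3.15 and 0.78 to 1.07 TPM in WT libraries. Their log2 fold changes were 0.44 (SE 0.16) and 0.67 (SE 0.21). Col24a1 and Col27a1 had log2 fold changes of 0.43 (SE 0.13) and 0.21 (SE 0.11), with edgeR adjusted p-values of 0.392 and 0.608.

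The basement membrane chains divided into 4 abundant and 5 scarce ones. In 6 of the 9 every KO library lay above every WT library in CPM, as did 10.2% of all genes. In TPM Col4a5 and Col15a1 of these overlapped. The class median was 0.50, with 8 of 9 positive, a range of -0.09 to 0.89 and 0 called. At an unadjusted edgeR p under 0.05, 4 were higher, against 5.16% of all genes. Col4a1 and Col4a2 form the common type IV trimer and are transcribed from a shared promoter in opposite directions, with starts 21 bases apart on chromosome 8.

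Col4a1 (chr8:11198423-11312826, minus strand) had 111, 180 and 177 CPM in KO libraries 4, 5 and 6, against 60.1, 91.0 and 92.6 CPM in WT libraries 1, 2 and 3. Col4a2 (chr8:11312805-11449287, plus strand) had 73.7, 102 and 99.0 CPM in KO libraries, against 36.2, 55.3 and 52.8 CPM in WT libraries. For both chains KO 4 was the lowest KO library and WT 1 the lowest WT library, and the groups did not overlap. The log2 fold changes were 0.84 (SE 0.26, edgeR adjusted p = 0.437) for Col4a1 and 0.86 (SE 0.22, edgeR adjusted p = 0.338) for Col4a2. Without KO 4 they were 1.14 and 1.07, and without KO 5 and KO 6 they were 0.45 and 0.62. The ratio of Col4a1 to Col4a2 TPM was 1.47, 1.74 and 1.79 in KO libraries, against 1.66, 1.6 and 1.66 in WT libraries, and it overlapped between the groups.

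Types XVIII and XV are related basement membrane collagens, and Col18a1 carries the anti-angiogenic fragment endostatin at its end, while loss of Col15a1 in mice affects peripheral nerve. Col18a1 (chr10:77052178-77166548, minus strand) had 29.2, 33.5 and 34.6 CPM in KO libraries, against 12.7, 20 and 18.6 CPM in WT libraries. The groups did not overlap, and its log2 fold change of 0.89 (SE 0.21, 1.85-fold, edgeR adjusted p = 0.298) was the highest among the 42 chains. Col15a1 had 68.8, 72.5 and 70.2 CPM in KO libraries, against 47.6, 44.3 and 55.5 CPM in WT libraries, with a log2 fold change of 0.51 (SE 0.13, edgeR adjusted p = 0.317). Per length the groups overlapped for Col15a1, at 34.11, 38.91 and 42.32 TPM in KO libraries, against 28.43, 25.72 and 38.79 TPM in WT libraries. The length that RSEM assigned to Col15a1 differed between libraries, at 4316 bases in KO 4 and 3206 bases in WT 3, and whether different transcripts were used was not tested.

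The remaining basement membrane chains were scarce. Col4a3, Col4a4 and Col4a5, which form the type IV network of the kidney glomerulus, were at 0.97 to 1.38, 0.81 to 0.96 and 2.00 to 2.24 TPM in KO libraries and at 0.85 to 1.52, 0.49 to 0.71 and 1.36 to 2.02 TPM in WT libraries. Their log2 fold changes were 0.01 (SE 0.25), 0.50 (SE 0.25) and 0.44 (SE 0.19), and that of Col4a3 turned negative under 7 of 17 alternatives, scaling by the upper quartile among them. Like Col4a1 and Col4a2, Col4a3 and Col4a4 start close together on opposite strands, 72 bases apart on chromosome 1. The ratio of Col4a3 to Col4a4 TPM was 1.01, 1.28 and 1.68 in KO libraries, against 2.20, 1.73 and 1.80 in WT libraries. The ratio of counts was 1.46, 1.79 and 2.04 in KO libraries, against 2.3, 2.09 and 2.59 in WT libraries. Col4a4 had only 70 to 79 counts in KO libraries and 43 to 63 in WT libraries. The length that RSEM gave Col4a3 varied, at 8554 bases in KO 4 and 6234 bases in WT 1. The part of few counts and of length in these ratios was not tested. Col4a6 had 6 to 9 counts in KO libraries and 6 to 12 in WT libraries, at which no difference was detectable (log2 fold change -0.09, SE 0.49). Col7a1, the anchoring fibril collagen of skin, was at 2.25 to 3.09 TPM in KO libraries and 2.71 to 3.37 TPM in WT libraries (log2 fold change 0.05, SE 0.14).

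**Figure D3:**
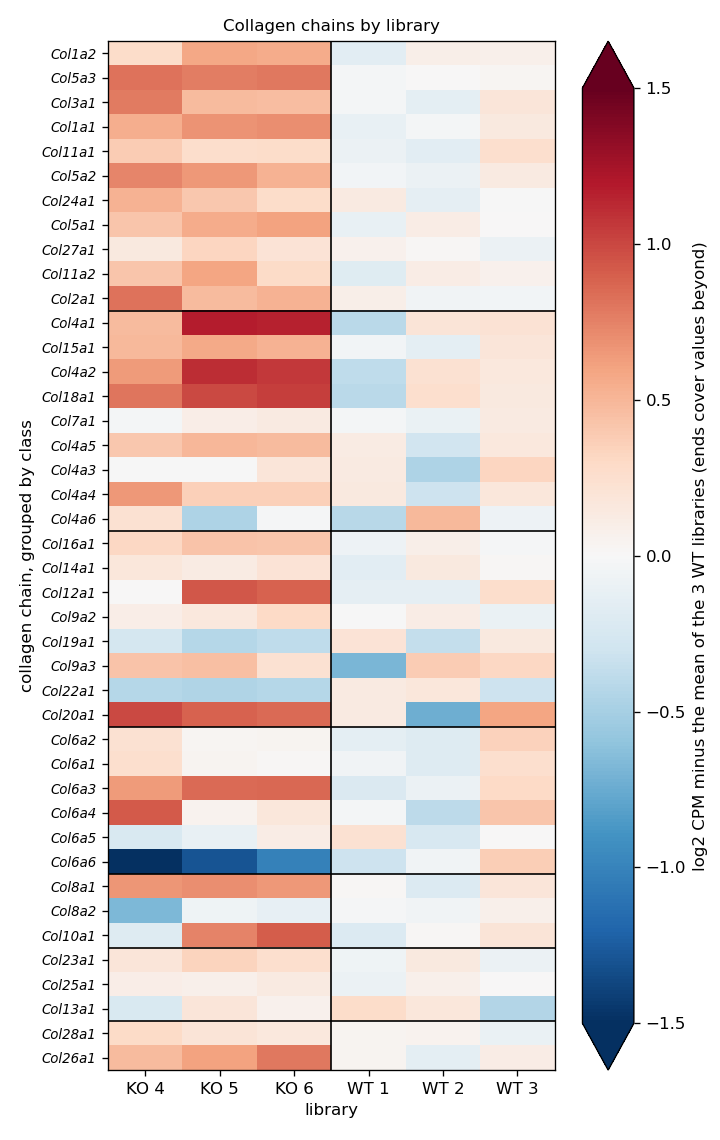
Log2 CPM of each tested collagen chain (y axis) in each library (x axis) minus its mean over the 3 WT libraries, with black lines between the classes, from the top fibrillar, basement membrane, fibril-associated, beaded-filament, short-chain, transmembrane and other. Red runs through the 3 KO columns for all 11 fibrillar chains, KO 4 is paler than KO 5 and KO 6 for Col4a1 and Col12a1, and Col6a6 is blue in every KO library.

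Fibril-associated collagens went both ways. The median log2 fold change of the 8 tested was 0.24, with 6 positive, and it was 0.16 after the GC correction. Col16a1, the most abundant at 41.22 to 49.18 TPM in KO libraries and 34.30 to 39.01 TPM in WT libraries, had 79.8, 86.6 and 85.9 CPM in KO libraries, against 61.1, 68.5 and 63.6 CPM in WT libraries. The groups did not overlap, with a log2 fold change of 0.37 (SE 0.11, edgeR adjusted p = 0.388). Col12a1 and Col14a1 bind the surface of type I fibrils. Col12a1 had 31.1, 58.9 and 57.1 CPM in KO libraries, against 28.2, 28.3 and 37.2 CPM in WT libraries, so that KO 4 lay inside the WT range and only the KO 5 and KO 6 sample was above it. Its log2 fold change of 0.52 (SE 0.27) was -0.01 without KO 5 and KO 6 and 0.90 without KO 4. Col14a1 overlapped, at 32.1, 31.1 and 33.0 CPM in KO libraries, against 25.7, 31.6 and 28.9 CPM in WT libraries (log2 fold change 0.16, SE 0.13).

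Among the scarcer fibril-associated chains, Col20a1 had 51 to 57 counts in KO libraries and 16 to 39 in WT libraries, with a log2 fold change of 0.86 (SE 0.39, edgeR adjusted p = 0.574). Col22a1, a collagen of the myotendinous junction, had 24 to 28 counts in KO libraries and 26 to 41 in WT libraries. It was 1 of the 3 chains with every KO library below every WT library in CPM, as were 14% of all genes (log2 fold change -0.47, SE 0.28). In TPM its groups overlapped, at 0.64 to 1.11 in KO libraries and 0.92 to 1.73 in WT libraries. Col19a1 overlapped, with a log2 fold change of -0.36 (SE 0.21). Col9a2 and Col9a3, chains of the cartilage collagen type IX, had log2 fold changes of 0.17 (SE 0.13) and 0.32 (SE 0.34), while Col9a1 had 2 to 5 counts in KO libraries and 0 to 6 in WT libraries and was not tested.

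Type VI collagen forms beaded filaments from a trimer of Col6a1, Col6a2 and one further chain, usually Col6a3. Of the 6 chains, 4 were positive and the median was 0.12, but it was 0.00 in limma-voom, -0.00 with the GC correction, with 3 positive, and 0.02 without KO 4 and 0.29 without WT 3. Col6a3 and its partners had unlike values. Col6a3 had 34.8, 40.4 and 40.8 CPM in KO libraries, against 19.3, 21.0 and 27.6 CPM in WT libraries, without overlap (log2 fold change 0.74, SE 0.18, edgeR adjusted p = 0.311). Col6a1 had 31.4, 27.2 and 26.8 CPM in KO libraries, against 25.4, 23.1 and 31.5 CPM in WT libraries, and Col6a2 had 34.7, 30.2 and 30.3 CPM in KO libraries, against 26.6, 25.7 and 37.6 CPM in WT libraries. Both overlapped, with log2 fold changes of 0.13 (SE 0.16) and 0.12 (SE 0.19). The ratio of Col6a1 to Col6a2 TPM was 0.900, 0.898 and 0.880 in KO libraries, against 0.957, 0.894 and 0.837 in WT libraries. The ratio of Col6a3 to Col6a1 TPM was 0.629, 0.987 and 0.946 in KO libraries, against 0.711, 0.553 and 0.581 in WT libraries. KO 4 lay inside the WT range of this last ratio per length, whereas the ratio of counts was 1.11, 1.48 and 1.52 in KO libraries, against 0.762, 0.909 and 0.873 in WT libraries, without overlap. The length that RSEM gave Col6a3 varied, at 7173 bases in KO 4 and 4386 bases in WT 1.

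The alternatives to Col6a3 were near the limit of detection. Col6a6 (chr9:105687809-105828160, minus strand) had 3, 6 and 7 counts in KO libraries 4, 5 and 6, against 13.4, 15 and 19.32 expected counts in WT libraries 1, 2 and 3. All KO libraries were below all WT libraries, and the log2 fold change of -1.63 (SE 0.47, edgeR adjusted p = 0.388) rests on these few counts. It ranged from -2.25 to -0.13 over the 17 alternatives. Col6a4 and Col6a5 had 20 to 32 and 39 to 54 counts in KO libraries and 13 to 22 and 42 to 61.6 in WT libraries, with log2 fold changes of 0.54 (SE 0.42) and -0.12 (SE 0.25). Col6a5 and Col6a6 had expected counts that were not whole in WT 1 and WT 3, as when RSEM divides reads between genes. Col6a5 was at 61.6 and 45.68 and Col6a6 at 13.4 and 19.32 there, and in each library the pair adds up to a whole number. The Col6a6 values of WT 1 and WT 3 thus depend on how reads were shared with Col6a5. Col5a1 and Col9a3 also had counts that were not whole.

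Among the short-chain collagens, Col8a1, a network collagen of vessel walls and the cornea, had 20.6, 21.1 and 20.4 CPM in KO libraries, against 13.2, 11.3 and 14.7 CPM in WT libraries. The groups were separate, with a log2 fold change of 0.66 (SE 0.14, edgeR adjusted p = 0.257). Its partner Col8a2 was in the opposite direction, at 3.23, 4.94 and 4.73 CPM in KO libraries, against 5.11, 4.97 and 5.43 CPM in WT libraries, with only KO 4 clearly below (log2 fold change -0.34, SE 0.21, and -0.09 without KO 4). Col10a1, the collagen of hypertrophic cartilage, had 15, 36 and 37 counts in KO libraries, against 17, 19 and 20 in WT libraries. Its log2 fold change of 0.48 (SE 0.40) was -0.22 without KO 5 and KO 6.

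The 3 tested transmembrane collagens had log2 fold changes between -0.06 and 0.24. Col23a1, the most abundant of them, had 40.6, 45.1 and 42.4 CPM in KO libraries, against 34.2, 39.7 and 33.6 CPM in WT libraries (log2 fold change 0.24, SE 0.12, edgeR adjusted p = 0.604). Col25a1, made by neurons, was at 3.50 to 3.83 TPM in KO libraries and 3.21 to 3.53 TPM in WT libraries, with a log2 fold change of 0.10 (SE 0.12). Col13a1, known from the neuromuscular junction, had 20 to 32 counts in KO libraries and 17 to 33 in WT libraries (log2 fold change -0.06, SE 0.34), and Col17a1, a hemidesmosome collagen, had 1 to 6 counts in KO libraries and 3 to 5 in WT libraries and was not tested. Of the other collagens, Col28a1 had 129, 121 and 118 CPM in KO libraries, against 109, 110 and 98.5 CPM in WT libraries. Its groups were separate by a small margin, with a log2 fold change of 0.23 (SE 0.11, edgeR adjusted p = 0.574). Col26a1 was at 6.02 to 7.70 TPM in KO libraries and 3.44 to 4.69 TPM in WT libraries, with a log2 fold change of 0.60 (SE 0.16, edgeR adjusted p = 0.364).

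Ratios of chains within a library do not depend on how the libraries are scaled. Of the 6 pairs plotted, 4 overlapped between the groups. The ratio of Col1a1 to Col1a2 TPM was 0.391, 0.362 and 0.371 in KO libraries, against 0.353, 0.309 and 0.350 in WT libraries. These values did not overlap, but the gap between the nearest libraries was smaller than the spread within either group. The ratio of Col18a1 to Col15a1 was 0.379, 0.390 and 0.365 in KO libraries, against 0.202, 0.318 and 0.234 in WT libraries, without overlap. Its mean was 0.378 ± 0.00132 in KO samples (SD, n = 2) and 0.251 ± 0.0598 in WT samples (SD, n = 3). That KO SD is smaller than the difference between KO 5 and KO 6, which were counted as 1 sample, so it understates the spread. The ratio of Col18a1 to Col15a1 counts, which leaves out the varying length of Col15a1, overlapped, at 0.425, 0.462 and 0.493 in KO libraries, against 0.267, 0.452 and 0.335 in WT libraries. The ratio of Col3a1 to Col1a2 was 0.940, 0.642 and 0.640 in KO libraries, against 0.725, 0.583 and 0.728 in WT libraries, and the difference between the KO samples exceeded that between the group means. No test was made on ratios.

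**Figure D4:**
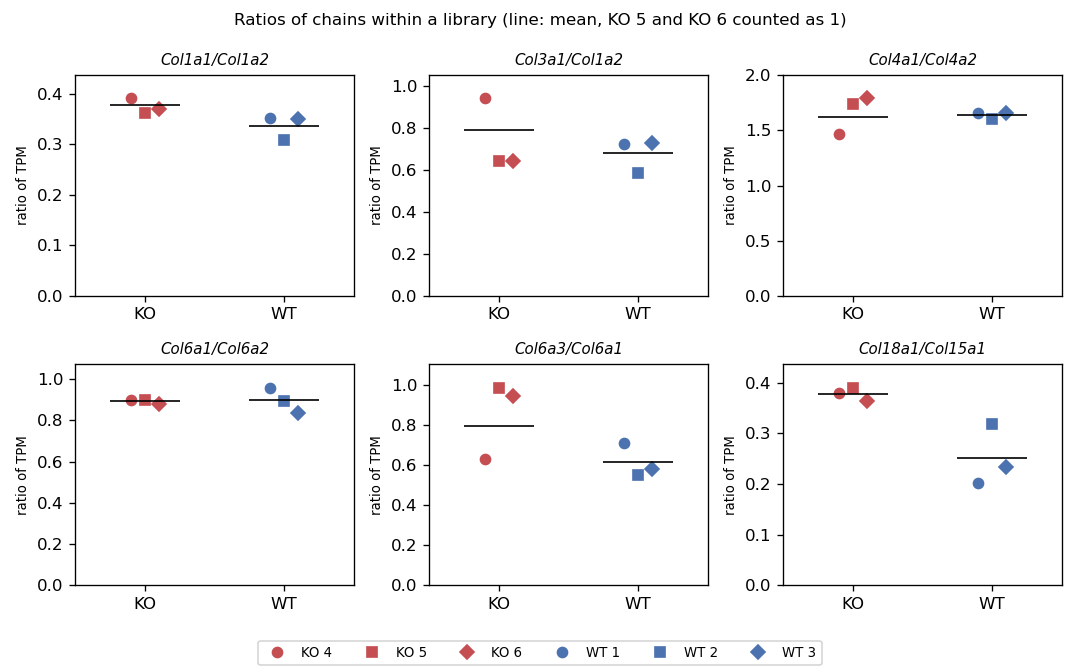
Ratio of the TPM of 2 collagen chains within each library (y axis, from 0) for 6 pairs, with KO libraries left, WT libraries right and a line at the group mean with KO 5 and KO 6 counted as 1. Col18a1 to Col15a1 lies at 0.365 to 0.390 in KO libraries and 0.202 to 0.318 in WT libraries, though the ratios of their counts overlap, while Col6a1 to Col6a2 and Col4a1 to Col4a2 overlap.

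Genes that fold, process, bind and degrade collagen were listed beside the chains. At an FDR of 0.05 edgeR called 0 genes in each of the 4 lists. Of 20 genes of folding and modification, 14 were positive, with a median log2 fold change of 0.15, and DESeq2 called 0. At an unadjusted edgeR p under 0.05, 2 were higher, against 5.16% of all genes, and 1 was lower, against 4% of all genes. The collagen chaperone Serpinh1 was at 80.09, 77.82 and 75.85 TPM in KO libraries, against 43.13, 40.89 and 66.61 TPM in WT libraries (log2 fold change 0.65, SE 0.21, edgeR adjusted p = 0.453). The lysyl hydroxylase Plod1 had a log2 fold change of 0.63 (SE 0.18), the prolyl 3-hydroxylase P3h1 0.26 (SE 0.14) and the galactosyltransferase Colgalt2 -0.28 (SE 0.10).

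Of 15 tested genes of procollagen processing and cross-linking, 14 were positive, with a median of 0.40. At an unadjusted edgeR p under 0.05, 6 were higher, against 5.16% of all genes. Loxl2, an oxidase that cross-links collagen and acts on type IV, was at 5.86, 6.74 and 5.51 TPM in KO libraries, against 1.86, 1.77 and 2.90 TPM in WT libraries. Each KO library was above each WT library, with a log2 fold change of 1.44 (SE 0.23, edgeR adjusted p = 0.191). Bmp1, which removes the C-propeptide of fibrillar procollagens, was at 15.15, 17.37 and 16.14 TPM in KO libraries, against 10.35, 9.07 and 10.93 TPM in WT libraries (log2 fold change 0.66, SE 0.12, edgeR adjusted p = 0.223). DESeq2 called Loxl2, Bmp1 and Sparc, where it called 0.782% of all genes as higher. On 6 separate libraries edgeR called Loxl2 and Bmp1, where 0.46% of all genes were called as higher. Sparc, a collagen-binding matrix protein, was at 1026 to 1043 TPM in KO libraries and 645.5 to 794.9 TPM in WT libraries, and Tll2, a relative of Bmp1, was under 1 TPM in every library.

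Of 11 receptor genes tested, 10 were positive (median 0.29), and DESeq2 called 0. At an unadjusted edgeR p under 0.05, 2 were higher, against 5.16% of all genes. The integrin subunits Itga10 and Itga1 had log2 fold changes of 0.95 (SE 0.27) and 0.54 (SE 0.24), the fibrillar collagen receptor Ddr2 had 0.39 (SE 0.15) and Adgrg6 had 0.23 (SE 0.11). Of 12 degradation genes, 9 were positive (median 0.29), 4 were higher at that unadjusted p, against the same 5.16%, and DESeq2 called 0. The membrane-bound proteases Mmp14 and Mmp16 had log2 fold changes of 0.51 (SE 0.14) and 0.62 (SE 0.18), and the protease inhibitors Timp1 and Timp3 had 1.16 (SE 0.34) and 0.36 (SE 0.11).

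**Figure D5:**
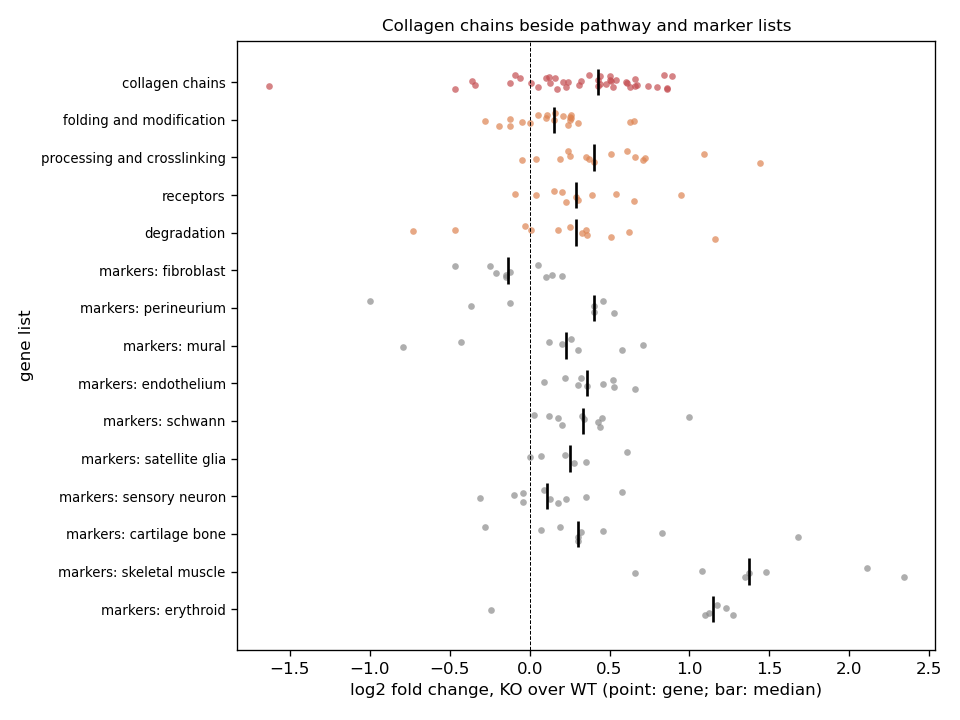
Log2 fold change of KO over WT (x axis) for each tested gene of the collagen chains, the 4 pathway lists and the cell type marker lists (y axis), with 1 point per gene and a bar at the median. The collagen median is 0.43, that of fibroblast markers -0.13, and those of Schwann cell and endothelial markers 0.33 and 0.36.

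Markers of the cells that make collagen did not share 1 direction. The 10 fibroblast markers summed to 2366 to 3118 TPM in KO libraries and 2579 to 3422 TPM in WT libraries, with 4 of 10 positive and a median of -0.13 on the log2 scale. The 10 Schwann cell markers summed to 7530 to 7790 TPM in KO libraries and 5979 to 6824 TPM in WT libraries, with 10 of 10 positive, a median of 0.33 and 4 higher at an unadjusted edgeR p under 0.05. The 9 endothelial markers summed to 93.73 to 100.3 TPM in KO libraries and 69.33 to 78.94 TPM in WT libraries, with 9 of 9 positive and a median of 0.36. Both sums were thus higher in KO libraries without overlap, like those of the collagens, and the part of cell composition in the collagen values was not tested. At an FDR of 0.05 edgeR and DESeq2 each called 0 genes of these 3 lists. At an unadjusted edgeR p under 0.05 there were 0 fibroblast markers. Those 4 Schwann cell markers and 3 endothelial markers were higher at it, against 5.16% of all genes.

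The remaining marker lists varied as well. Mural cell markers summed to 107.0 to 112.2 TPM in KO libraries and 135.6 to 179.1 TPM in WT libraries, but 6 of 8 were positive, with a median of 0.23. Without Rgs5, which was at 65.92 to 70.78 TPM in KO libraries and 101.1 to 139.1 TPM in WT libraries, the sum was 36.25 to 44.02 TPM in KO libraries and 27.89 to 39.98 TPM in WT libraries. Perineurial markers summed to 130.0 to 146.0 TPM in KO libraries and 122.1 to 130.4 TPM in WT libraries. Of these 7 markers 4 were positive and 3 negative, with a median log2 fold change of 0.40. Satellite glial markers summed to 1031 to 1094 TPM in KO libraries and 820.7 to 998.9 TPM in WT libraries, and neuronal markers to 17000 to 21760 TPM in KO libraries and 14110 to 19110 TPM in WT libraries. Among 15 cartilage and bone markers, which bear on Col2a1, Col9a2, Col10a1 and Col11a2, Matn1 was at 0 in every library, Sp7 was at 0.04 to 0.10 TPM in KO libraries and 0.05 to 0.09 TPM in WT libraries, and 9 were tested, 8 of them positive. Others were detected, with Cnmd at 33.40 to 44.72 TPM in KO libraries and 30.78 to 41.10 TPM in WT libraries, Hapln1 at 14.88 to 15.39 TPM in KO libraries and 17.42 to 19.70 TPM in WT libraries, and Ibsp at 8.39 to 9.32 TPM in KO libraries and 5.50 to 6.87 TPM in WT libraries. Chad was at 2.41, 5.71 and 5.55 TPM in KO libraries, against 1.01, 0.92 and 1.91 TPM in WT libraries, without overlap (log2 fold change 1.68, SE 0.44, edgeR adjusted p = 0.358). The summed level of the 15 was 338.2 to 372.0 TPM in KO libraries and 295.0 to 324.7 TPM in WT libraries. Without Spp1, which held most of it, the sum was 94.27 to 95.87 TPM in KO libraries and 83.54 to 86.17 TPM in WT libraries. The part of these markers in the values of the cartilage collagens was not tested. Skeletal muscle markers summed to 69.06 TPM in KO 4, against 6.45 and 7.64 TPM in KO 5 and KO 6 and 6.19 to 25.65 TPM in WT libraries. Without KO 4, 36 of 42 collagen chains were positive with a median of 0.35, and without KO 5 and KO 6, 32 of 42 were positive with a median of 0.33.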

How the data were processed

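RNA of whole lumbar ganglia from 3 KO and 3 WT mice was sequenced from stranded mRNA libraries, per the labels' protocols. The submitters' processing notes name Trimmomatic 0.38, STAR 2.6.0a, RSEM 1.3.0 and the GRCm38 build. No source used here gives the annotation release or the strand setting. The authors' table gives gene lengths and 3 units for each library. The deposited expected counts are not normalized and were rounded before testing. The deposited TPM values are per length and sum to about 1000000 per library. The deposited FPKM values entered no test.

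Symbols matched 35243 of 36793 identifiers in GENCODE vM21 (GRCm38). Counts were filtered with filterByExpr, scaled by TMM and compared by edgeR's quasi-likelihood test (edgeR 4.0.16, R 4.3.3), two-sided, with Benjamini-Hochberg adjustment over 16810 genes at 0.05. KO 5 and KO 6 were summed as 1 sample. Errors on means are SDs over samples. The SE of a log2 fold change is its size divided by the square root of F. Alternatives used DESeq2 1.42.0, limma 3.58.1 on voom values and on log2(TPM + 0.1) or log2(TPM + 1), other scalings and filters, a loess correction for GC content, an FDR of 0.10 and each sample left out. The scripts were tested on simulated counts.

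The collagen chains, their classes and the other gene lists were chosen with earlier results of these data known. From each other list the genes that passed and up to 4 with the smallest p were named. Tubb3, Matn1, Sp7, Cnmd and Spp1 were named after their values were seen. The labels give mouse numbers only. The p-values set the difference of KO and WT against the variation among these 2 KO and 3 WT samples only, which may be technical. Without molecular identifiers, counts are not independent molecules.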

Additional observations from a re-analysis of the deposited data

How the results depend on the processing

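Of the 17 alternatives, the fits on TPM changed test, unit and filter together, limma-voom changed the test and added sample weights, DESeq2 changed the test, size factors and filter, and the others changed 1 choice. The count of collagen chains called was 3 with 6 libraries separately, 1 without a filter, 9 in DESeq2, 1 in limma-voom with quality weights, 1 at an FDR of 0.10 and 0 in the other 12, leave-one-out fits included. Fibrillar chains made up 3, 1, 5, 1 and 1 of these, and DESeq2 also called 2 basement membrane chains, 1 beaded-filament chain and 1 short-chain collagen. Over all genes the count of 16 was 144 with 6 libraries, 81 without a filter, 247 in DESeq2, 27 in limma-voom, 8 on unfiltered log2(TPM + 0.1), 28 with the GC correction, 30 at an FDR of 0.10 and 7 to 14 when a sample was left out. Processing and cross-linking genes had 2 calls with 6 libraries, 1 without a filter and 3 in DESeq2. Mural markers had 1 and 2, and satellite glial markers 1 and 1, with 6 libraries and in DESeq2. The mural calls went both ways, with Rgs5 lower in KO in both fits and Cspg4 higher in DESeq2. Kcnj10, higher in KO, was the satellite glial call in both fits.

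The median of all chains (0.43) was 0.29 and 0.26 on log2(TPM + 0.1) and log2(TPM + 1), 0.28 on unfiltered TPM, and 0.33 to 0.46 when a sample was left out. The fibrillar median (0.50) was 0.60 on log2(TPM + 0.1), filtered or not, and 0.50 to 0.56 when a sample was left out. The basement membrane median (0.50) was 0.37 in limma-voom and on log2(TPM + 0.1), 0.25 on log2(TPM + 1) and 0.29 unfiltered. The fibril-associated median (0.24) was 0.14 on log2(TPM + 1), 0.16 with the GC correction and 0.13 to 0.33 when a sample was left out. The short-chain median (0.48) was 0.13 on log2(TPM + 1) and -0.22 to 0.67 when a sample was left out, with the negative value without KO 5 and KO 6. The median of Col26a1 and Col28a1 (0.42) was 0.33 with the GC correction and 0.38 to 0.46 when a sample was left out. The median of all genes stayed between -0.03 and 0.02.

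Of the single chains, 8 crossed 0, none past a threshold on either side. Col4a3 was -0.03 with upper quartile factors, -0.12 in limma-voom and on both log2(TPM + 0.1) fits, -0.08 on log2(TPM + 1) and -0.19 to 0.18 when a sample was left out. Col4a6 was 0.01 in limma-voom and -0.33 to 0.21 when a sample was left out. Col7a1 was -0.20 on both log2(TPM + 0.1) fits, -0.15 on log2(TPM + 1), -0.11 with the GC correction and -0.04 to 0.12 when a sample was left out. Col6a2 was -0.02 in limma-voom and -0.01 with the GC correction. Col13a1 was 0.16 in limma-voom and -0.29 to 0.10 when a sample was left out. When a sample was left out, Col12a1 ranged from -0.01 to 0.90, Col6a5 from -0.25 to 0.03 and Col10a1 from -0.22 to 0.88. The causes were not tested.

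No paired analysis was possible because KO and WT share no replicate numbers. With 2 KO samples, chains under about 20 counts per library (Col4a6, Col6a6, Col9a1 and Col17a1) allow no firm statement.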
